A study of Mus musculus with 13 samples.

Results

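The genes described here are 38 genes of the G1/S transition and of DNA replication, listed by symbol for their role, with earlier results of these data known. All 38 were found by symbol in a mouse gene annotation and in the deposited table of 22656 genes. They were measured in mouse melanoma cells of the line B16F10-TR-shApoe, a B16F10 derivative whose name gives a hairpin RNA against the cells' own Apoe, recovered from the lungs of knock-in mice. The hosts were APOE2 knock-in mice (8 libraries) or APOE3 knock-in mice (5 libraries), which carry the human gene for apolipoprotein E2 or E3, a secreted lipid-carrying protein. All hosts had been injected with the same tumour cells into the tail vein, and lungs were taken on day 15. Viable tumour cells (low for the dye TO-PRO-3, GFP+ and CD45-) were sorted from the digested lung, and libraries were made from the poly(A) end of the transcripts with the QuantSeq forward kit. Host age, sex and strain background were not given in the sources used here. The labels also do not say whether 1 library is 1 animal, so p-values measure the spread between these libraries.

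A cell commits to a new round of division when cyclin D with CDK4 or CDK6, and then cyclin E with CDK2, inactivate the retinoblastoma protein and release E2F transcription factors. E2F proteins switch on genes whose products build the replication machinery. CDC6 and CDT1 load the MCM helicase ring (the products of Mcm2 to Mcm7) on origins in G1. CDC45 and the GINS complex then turn the ring into an active helicase in S phase. The sliding clamp PCNA, its loader RFC, the single-strand binding protein RPA and the polymerases copy the opened strands. Transcripts of these genes are widely used as a readout of how many cells in a tumour are entering or passing through S phase.

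Promoters were examined for the sequence that E2F proteins are known to bind, which was not used to list the members. RefSeq promoter windows (build GRCm38.p6, 250 bases before to 50 after a start site) were matched for 30 of the 38 members. An exact match on either strand to TTTCGCGC, TTTGGCGC, TTTCCCGC or TTTGCCGC was present for 13 of the 30 (43.3%), against 704 of the 27025 genes with a window in the promoter set. Counted by window, 37.1% of the members' 35 windows and 2.26% of all 32851 windows held one. These matches can overlap each other. The share was 30.8% in the 65 matched genes of a wider replication list and 5.88% in the 17 matched genes of a list of later cell-cycle genes, both described below. TTTGAA, the CHR element known from promoters of mitotic genes, had the other order, with 4 of 30 members (13.3%), 64.7% of the later cycle genes and 20.2% of all genes with a window. CCAAT, the NF-Y box, was found for 63.3% of the members, 82.4% of the later cycle genes and 41.1% of all genes with a window. A match is a description of the letters in the window and not evidence of binding. Among the members named below with full values, the promoters of Mcm6, a subunit of the helicase ring, and Gins3, a subunit of GINS, held E2F matches, and both are shown with the matching bases in capitals. The Mcm6 window is chr1:128359656-128359955 on the minus strand, with 3 matches of which 2 overlap. The Gins3 window is chr8:95633309-95633608 on the plus strand, with 1 match, read on the opposite strand.
Mcm6: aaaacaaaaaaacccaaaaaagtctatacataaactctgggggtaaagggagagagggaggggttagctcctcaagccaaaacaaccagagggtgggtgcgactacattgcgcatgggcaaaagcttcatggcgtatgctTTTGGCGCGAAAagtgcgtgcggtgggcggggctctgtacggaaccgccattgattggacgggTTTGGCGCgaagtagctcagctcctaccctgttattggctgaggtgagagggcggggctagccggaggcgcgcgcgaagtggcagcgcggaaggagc
Gins3: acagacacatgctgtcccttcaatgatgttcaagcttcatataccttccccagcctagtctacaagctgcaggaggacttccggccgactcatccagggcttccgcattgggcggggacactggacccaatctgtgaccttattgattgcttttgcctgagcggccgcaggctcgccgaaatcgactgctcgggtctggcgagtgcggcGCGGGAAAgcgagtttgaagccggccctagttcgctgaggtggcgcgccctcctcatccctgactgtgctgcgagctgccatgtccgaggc

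Recovered reads ranged from 7080308 to 13039989 per library. The melanocyte genes Pmel and Tyr were high in all libraries, and Pmel, which encodes a melanosome matrix protein, ranged from 43422 to 70028 normalised counts over the 13 libraries. Apoe, the hairpin's target in both groups, ranged from 1217 to 2101 normalised counts in APOE2 and from 1193 to 2369 in APOE3, and no library without the hairpin was analysed here. RNA of other lung cells differed between the groups: the 15 lung-epithelium markers summed to 95.7 to 497 CPM (counts scaled to an equal total in each library) in APOE2 and 438 to 2595 in APOE3, and 6 of the 12 that were tested were lower in APOE2 in limma after adjustment. The 14 endothelial markers summed to 90.4 to 146 CPM in APOE2 and 135 to 301 in APOE3. Fibroblast and smooth muscle markers summed to 18.2 to 58.3 in APOE2 and 38.4 to 238 in APOE3. For leukocyte markers the sums were 59.5 to 304 and 264 to 1499. In limma after adjustment, 2 of 14 endothelial, 1 of 8 fibroblast and smooth muscle and 2 of 8 leukocyte markers tested were lower in APOE2. Such sums are weighted to abundant genes, such as Sftpc in the epithelial list, with means of 1212 in APOE2 and 5949 in APOE3. Erythroid markers summed to 4.80 to 22.0 in APOE2 and 2.84 to 26.8 in APOE3. No marker present in the table was at 0 in every library. The 7 melanocyte markers summed to 35233 to 51141 CPM in APOE2 and 26018 to 37681 in APOE3. That sum is weighted to abundant genes such as Dct, with mean normalised counts of 232522 in APOE2 and 150389 in APOE3. Of the 7, 3 were lower in APOE2 and 0 passed in limma, with a median log2 difference (APOE2 minus APOE3) of 0.069. In such bulk samples, fewer cycling cells and less RNA of these genes per cell cannot be told apart. APOE3 replicate 2 stood apart: it held the highest or the lowest value of 44.7% of the members, and of 40.9% of 8155 other genes with a mean in the members' range. APOE2 replicate 3 held 31.6% and 24.7%. The abundant transcript Gm42418 took 3.74% of normalised counts in APOE3 replicate 2 and 3.03% in APOE3 replicate 3, against 0.662% to 2.17% in the other 11 libraries.

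The first question was which of the replication genes differed with the genotype of the host. No member passed the test in either direction, and the differences that came closest were spread over several steps of replication: a lower Pcna and Cdk4 and a higher Fen1, Mcm4, Mcm6 and Gins3 in APOE2, each with overlapping groups. In limma, with Benjamini-Hochberg adjustment over 12403 genes, 0 of the 38 members passed at 0.05, beside 98 genes in all (0.790%). The smallest adjusted p-value of a member was 0.215, for Pcna. Without adjustment, 6 members (15.8%) had a p-value under 0.05, near the background of 14.2% of all genes. Fen1, Mcm4, Mcm6 and Gins3 had differences above 0, that is higher in APOE2 (7.51% of all genes did so at that p-value), and Pcna and Cdk4 below 0 (6.71% of all genes). By edgeR's quasi-likelihood test and by DESeq2 on the recovered reads 0 members passed as well, where 1.11% and 2.51% of all genes did. At an unadjusted p-value under 0.05 both tools had 3 members, Fen1, Gins3 and Pcna, where 13.2% (edgeR) and 14.5% (DESeq2) of all genes had one. The groups overlapped in every member, and 0.984% of all tested genes had groups that did not overlap.

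All 38 members passed the filter of a mean of at least 10 normalised counts, with means from 83.9 to 2672, and the lowest count of any member in any library was 33 reads. Exons of 15 members overlap another annotated gene, for 12 of them a protein-coding one, and their counts are uncertain to that extent. Differences are APOE2 minus APOE3 on the scale log2(normalised count + 1). The median over the members was 0.0085, beside 0.00037 for all genes tested. Of the members 21 had a difference above 0 and 17 below, beside 50.1% of all genes above 0. With equal library totals 15 members lay above 0 (median −0.032), and with TMM scaling 23 (median 0.029), where the median of all genes moved to −0.040 and 0.020. The range was −0.35 to 0.63. The median size of the difference, without its sign, was 0.12 for the members and 0.17 for the other genes in their range of means. The 95% limma interval of the difference lay within 1 log2 unit of 0 on both sides for 36 of the 38 members, all but Mcm4 and Gins3. It lay within 0.5 for 20. The median distance from the estimate to the end of the interval, which is not adjusted for the number of genes, was 0.33. Smaller differences were mostly not detectable with 8 and 5 libraries, and larger ones could also be missed. Mcm4 (0.58) and Gins3 (0.63) did not pass after adjustment.

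**Figure D1:**
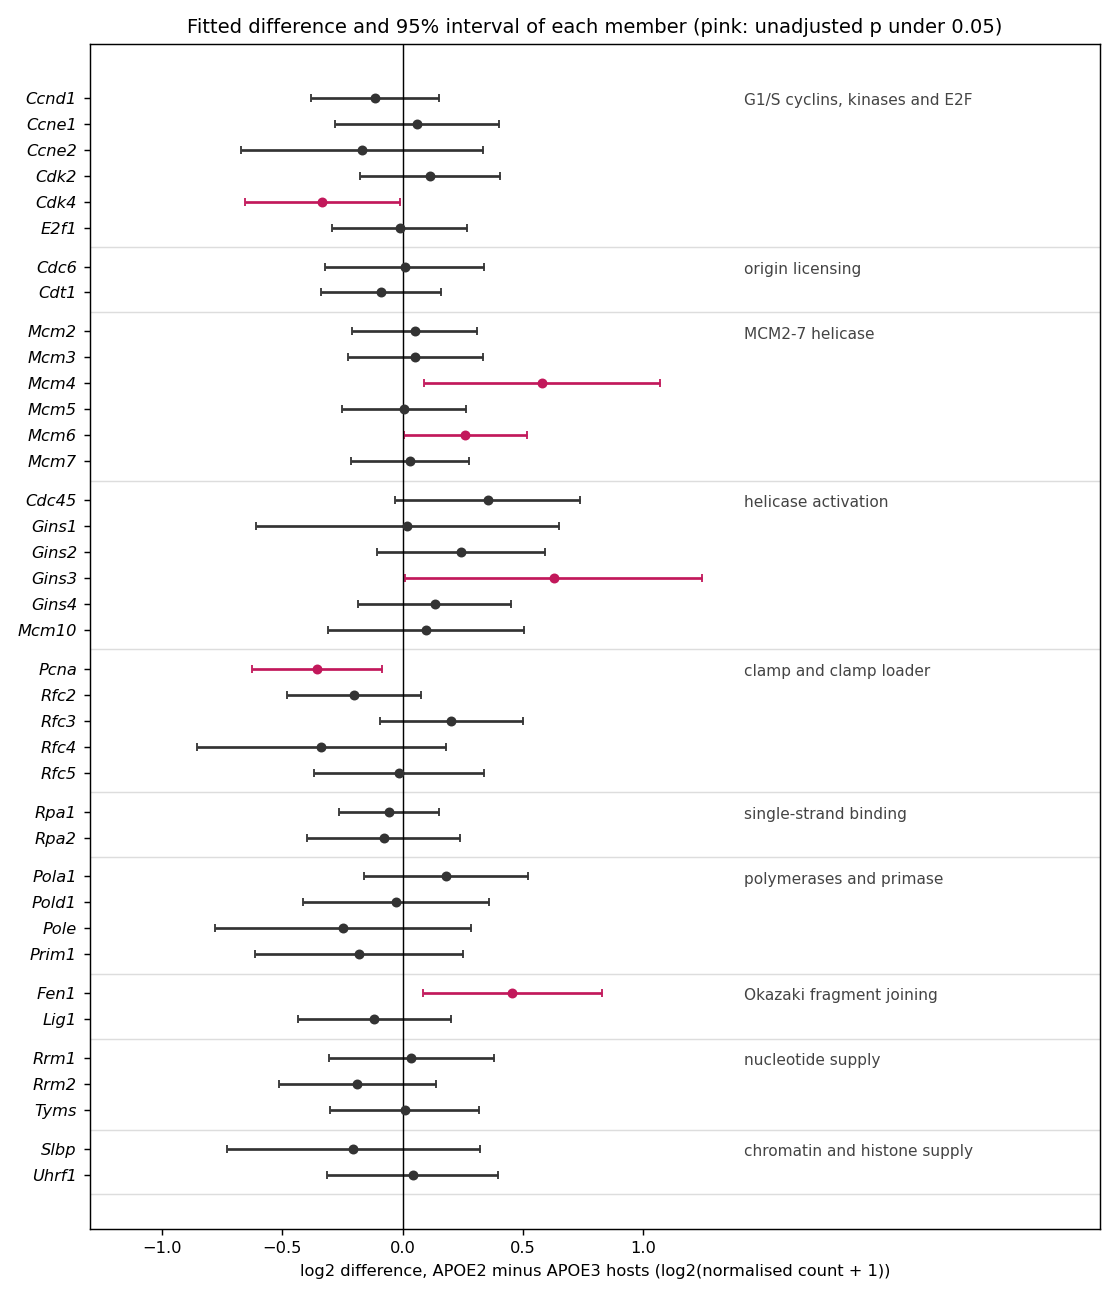
Fitted log2 difference (APOE2 minus APOE3, horizontal axis) of each of the 38 members with its 95% limma interval, grouped by role. Pink marks the 6 members with an unadjusted p under 0.05, of which 0 passed after adjustment, and the intervals of Mcm4 and Gins3 alone extend past 1.

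Summed over the 38 members, their share of all normalised counts was 3432 to 4770 CPM in the APOE2 libraries, with a mean of 4114 ± 376 (SD, n = 8). It was 3765 to 4794 CPM in the APOE3 libraries, with a mean of 4229 ± 485 (SD, n = 5). The lowest library was APOE2 replicate 1 and the highest was APOE3 replicate 1, with APOE2 replicate 3 next, so each genotype held libraries at the upper end of the range. In APOE3 replicate 1, 30 of the 38 members lay above their own median over the 13 libraries. In APOE2 replicate 3 it was 27, and in APOE2 replicate 1 it was 7. The within-group SD on the log2 scale had a median over the members of 0.25 in APOE2 and 0.33 in APOE3. The 8155 other genes in the same range of means had 0.26 and 0.35. The SD was larger in APOE3 for 25 of the 38 members (65.8%) and for 70.9% of those other genes. Without APOE3 replicate 2 the members' median SD in APOE3 was 0.29.

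**Figure D2:**
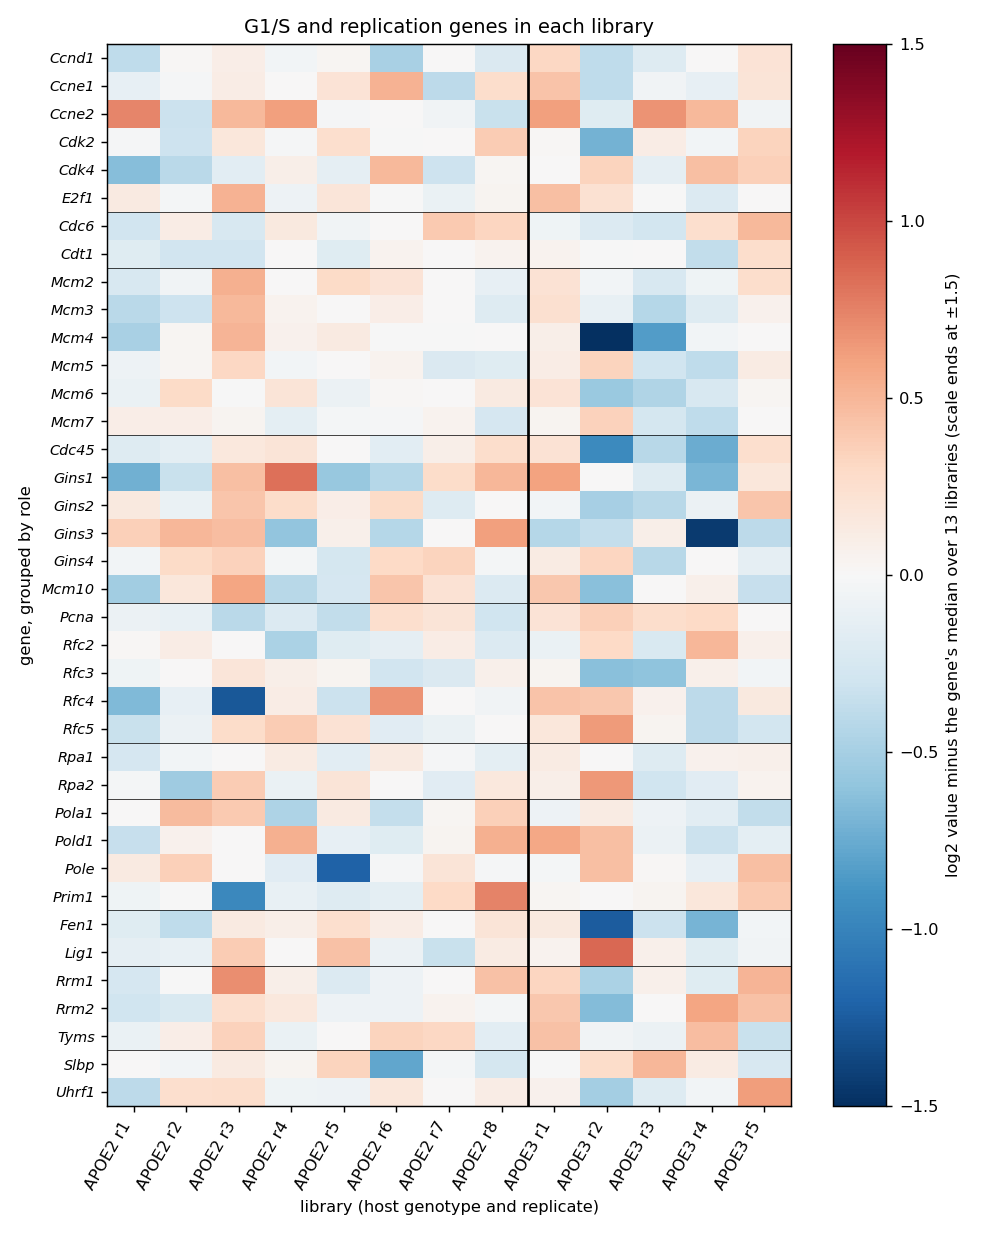
Each member (rows, grouped by role) in each of the 13 libraries (columns), as the log2 value minus the gene's median over the libraries. Red is above and blue below that median; APOE3 replicate 2 holds the highest value of 6 members and the lowest of 11, and in APOE2 replicate 3 27 members lie above their median.

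The G1/S regulators act first in the order of events. Gene positions are those of the annotation on GRCm38. Ccnd1 (ENSMUSG00000070348, chr7:144929931-144939925), which encodes cyclin D1, had 1598 to 2396 normalised counts in APOE2 (median 2204), and 2778, 1713, 1956, 2248 and 2581 in APOE3 replicates 1 to 5. The APOE3 libraries spanned nearly the whole APOE2 range and went beyond it at the top. The log2 difference was −0.11 ± 0.13 (SE, limma adjusted p = 0.735). Exons of Ccnd1 share 1100 of 4709 bases with LTO1 on the opposite strand. Cdk4 (ENSMUSG00000006728, chr10:127063534-127067920), the kinase that cyclin D activates, had 579 to 1267 in APOE2 (median 820), and 905, 1143, 821, 1240 and 1160 in APOE3. Every APOE3 library lay above the APOE2 median, but APOE2 replicate 6 was the highest of all 13. Its log2 difference was −0.33 ± 0.16 (SE, limma adjusted p = 0.339), and the adjusted p ran from 0.180 to 0.505 when 1 library was left out in turn. Exons of Cdk4 overlap those of Tspan31 on the opposite strand, and the strand setting of the read counting was not given in the sources used here. E2f1 (ENSMUSG00000027490, chr2:154559407-154569892), the transcription factor itself, had 554 to 849 in APOE2 (median 599.6) and 811, 695, 591, 517 and 594 in APOE3. The 2 groups overlapped over most of their ranges, with a log2 difference of −0.011 ± 0.14 (SE) and a 95% interval of −0.29 to 0.27. The other 3 were Ccne1 and Ccne2, which encode the E cyclins, and Cdk2, their kinase, with differences of 0.060, −0.17 and 0.11 and limma adjusted p-values from 0.761 to 0.910. Exons of Cdk2 share 34 of 6219 bases with the very abundant Pmel on the opposite strand.

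Origin licensing and the helicase ring followed. The loaders Cdc6 and Cdt1 had log2 differences of 0.0087 and −0.089. Mcm2 (ENSMUSG00000002870, chr6:88883474-88898780), a ring subunit, had 2141 to 3676 normalised counts in APOE2 (median 2545), with APOE2 replicate 3 at the top, and 2945, 2472, 2151, 2426 and 3038 in APOE3. Its log2 difference was 0.050 ± 0.13 (SE). Differences of the subunits Mcm3, Mcm5 and Mcm7 were 0.053, 0.0046 and 0.032, with limma adjusted p-values from 0.901 to 0.993. Mcm4 (ENSMUSG00000022673, chr16:15623897-15637400), another ring subunit, had 1155 to 2312 normalised counts in APOE2 (median 1647), and 1732, 418, 905, 1577 and 1623 in APOE3. The low values were in APOE3 replicates 2 and 3, and the other 3 APOE3 libraries lay close to the APOE2 median. On the log2 scale it differed by 0.58 ± 0.24 (SE, limma adjusted p = 0.270). Without APOE3 replicate 2 the difference was 0.23, and without APOE3 replicate 3 it was 0.51. Mcm6 (ENSMUSG00000026355, chr1:128331590-128359664), whose promoter is shown above, had 1830 to 2399 in APOE2 (median 1971), and 2255, 1328, 1437, 1656 and 1993 in APOE3. Its values in APOE3 replicates 2, 3 and 4 stood below every APOE2 library. The fitted log2 difference was 0.26 ± 0.12 (SE, limma adjusted p = 0.342), and 0.17 without APOE3 replicate 2. All 6 ring subunits had a difference above 0, of which 4 were under 0.06, but this count held in only 18 of 28 alternative fits. Some of the 28 change only the filter or limma's variance options. Those cannot move a difference, so their signs were fixed in advance. Mcm4 and Mcm6 lay above 0 in all 28, while the other 4 changed sign: 2 of the 6 lay above 0 without APOE3 replicate 3 (median −0.019), 3 without APOE2 replicate 3 (median 0.0042), 3 with the lung-epithelium covariate (median −0.090) and 4 with equal library totals (median 0.011). None passed the test in limma.

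The 6 genes of helicase activation had differences above 0 too, a count that held in 16 of 28 alternative fits, and 0 of 6 passed. In the other 12 fits Gins1, Mcm10 or both lay below 0, Gins1 with equal library totals among them, and Cdc45, Gins2, Gins3 and Gins4 lay above 0 in all 28. Gins3 (ENSMUSG00000031669, chr8:95633453-95645060), a GINS subunit whose promoter is shown above, had 56.3 to 132 normalised counts in APOE2 (median 99.7), and 63.2, 66.7, 90.5, 31.1 and 64.8 in APOE3. Each APOE3 library lay below the APOE2 median, while the APOE2 libraries reached below the APOE3 median. The log2 difference was 0.63 ± 0.30 (SE, limma adjusted p = 0.344). It was 0.40 without APOE3 replicate 4, whose value was the lowest, and 0.67 without APOE3 replicate 2. Cdc45 (ENSMUSG00000000028, chr16:18780447-18811987), the partner of GINS, had 343 to 472 in APOE2 (median 404), and 456, 202, 295, 233 and 469 in APOE3. The APOE3 libraries fell into values at the top of the APOE2 range (replicates 1 and 5) and values below all of it (replicates 2, 3 and 4). Its log2 difference was 0.35 ± 0.19 (SE, limma adjusted p = 0.395), and 0.20 without APOE3 replicate 2. The remaining GINS subunits Gins1, Gins2 and Gins4 had differences of 0.020, 0.24 and 0.13, and Mcm10, which helps to activate the helicase, 0.098. Gins2 shares exon bases with Gse1 and Cdc45 with Ufd1, both on the opposite strand.

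The clamp and its loader had differences below 0 in 4 of 5 genes, with 0 past the test. Pcna, Rfc2 and Rfc4 lay below 0 in all 28 alternative fits, and Rfc5 lay above 0 in 10 of them, TMM scaling among them. Pcna (ENSMUSG00000027342, chr2:132249162-132253314), the sliding clamp, had 544 to 859 normalised counts in APOE2 (median 649), and 835, 928, 867, 891 and 723 in APOE3. All 5 APOE3 libraries lay above the APOE2 median, and APOE2 replicates 6 and 7 lay among them. The APOE2 libraries averaged 670 ± 118 (SD, n = 8) and the APOE3 libraries 849 ± 78.0 (SD, n = 5). On the log2 scale it differed by −0.35 ± 0.13 (SE, limma adjusted p = 0.215), and the 95% interval was −0.63 to −0.084. When 1 library was left out in turn the difference stayed between −0.41 and −0.31 and the adjusted p between 0.142 and 0.329. A fit that held the mean of the lung-epithelium markers constant gave −0.15. The annotation holds 2 named pseudogenes of Pcna, and how reads shared with them were counted is not stated. Rfc2 (ENSMUSG00000023104, chr5:134581366-134601805), a loader subunit, had 618 to 929 in APOE2 (median 818), and 800, 1058, 731, 1209 and 901 in APOE3. The groups overlapped over most of the APOE2 range, with a log2 difference of −0.20 ± 0.14 (SE) that was −0.11 without APOE3 replicate 4. Rfc3, Rfc4 and Rfc5, further loader subunits, had differences of 0.20, −0.34 and −0.015.

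Among genes of strand synthesis, Fen1 (ENSMUSG00000024742, chr19:10199132-10204169), the nuclease that trims Okazaki fragments, had the smallest unadjusted p-value. It had 496 to 767 normalised counts in APOE2 (median 692), and 717, 271, 515, 399 and 628 in APOE3. APOE3 replicates 2 and 4 lay below every APOE2 library, and APOE3 replicate 1 lay above the APOE2 median. The fitted log2 difference was 0.46 ± 0.18 (SE, limma adjusted p = 0.252), and 0.25 without APOE3 replicate 2. Fen1 shares exon bases with Gm10143 and Tmem258 on the opposite strand. Lig1, the ligase that seals the same fragments, had a difference of −0.12, and its highest value, 3321, was in APOE3 replicate 2, the library that held the lowest value of Fen1. The polymerase subunit genes Pola1, Pold1 and Pole had differences of 0.18, −0.027 and −0.25, and the primase gene Prim1 −0.18. For Rpa1 and Rpa2, which coat single-stranded DNA, they were −0.056 and −0.079.

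Nucleotide supply and chromatin genes completed the list. Rrm2 (ENSMUSG00000020649, chr12:24708241-24714146), the regulated subunit of ribonucleotide reductase, had 1565 to 2294 normalised counts in APOE2 (median 1863), and 2548, 1228, 1928, 2918 and 2612 in APOE3. APOE3 replicates 1, 4 and 5 lay above every APOE2 library and replicate 2 below every one, so the wider APOE3 range enclosed that of APOE2. The log2 difference was −0.19 ± 0.16 (SE, limma adjusted p = 0.625). Without APOE3 replicate 2, the lowest, it was −0.39 with a limma adjusted p of 0.135, and without APOE3 replicate 4, the highest, it was −0.077. Rrm1, the other subunit, and Tyms, which makes thymidylate, had differences of 0.037 and 0.0083. Uhrf1, which carries DNA methylation through replication, and Slbp, which binds histone mRNA, had 0.042 and −0.20.

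**Figure D3:**
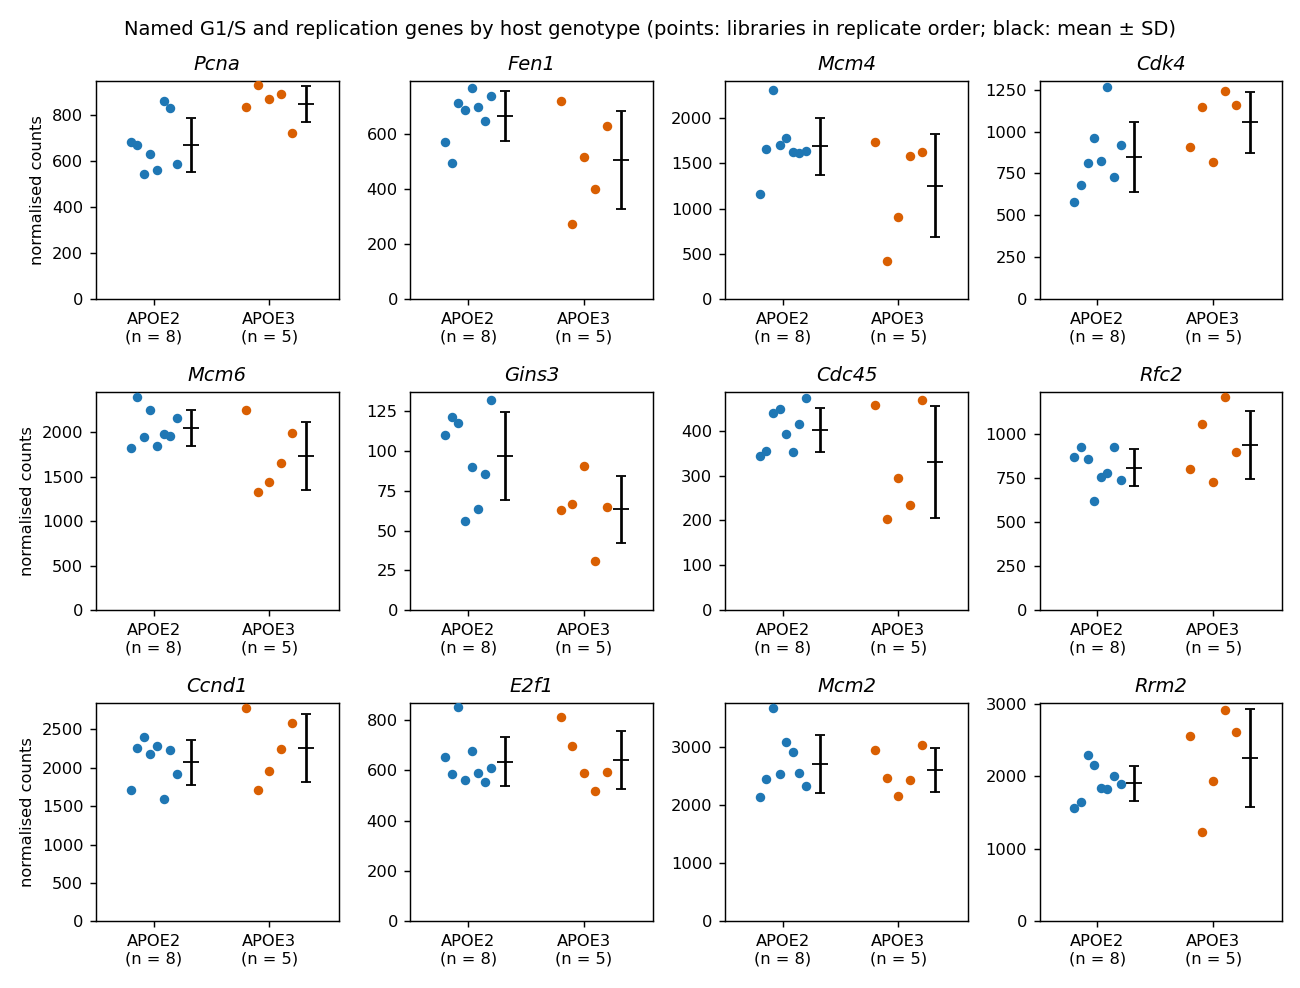
Normalised counts (vertical axes, from 0) of 12 members in each library, in replicate order, with the mean ± SD of each group in black. In Mcm4, Fen1 and Cdc45 the lowest value is that of APOE3 replicate 2, and in Pcna the 5 APOE3 values lie between 723 and 928, above the APOE2 median of 649.

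The rest of the pathway was read from a list of 80 further genes of G1/S control, origin firing, fork function, nucleotide supply and chromatin replication. Of these 76 were tested, and 0 passed limma's adjusted threshold as higher or as lower. Without adjustment, 11 had a p-value under 0.05 (14.5%), 5 higher and 6 lower in APOE2, again near the 14.2% of all genes. The count by edgeR was also 0 (1.11% of all genes passed), with 11 at an unadjusted p-value under 0.05 (13.2% of all genes). By DESeq2 the count was 1, Gmnn (2.51% of all genes passed), with 12 at an unadjusted p-value under 0.05 (14.5% of all genes). The median difference was 0.0043, with 38 genes above 0 and 38 below. Cdkn1c and Cdkn2b, which encode inhibitors of cyclin-dependent kinases, were below the filter, and Cdkn2a and Mycn were not analysed here.

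The smallest p-value of that list belonged to Gmnn, which encodes geminin, the inhibitor that binds CDT1 and prevents a second licensing. Gmnn had 387 to 480 normalised counts in APOE2 (median 436), and 414, 229, 272, 192 and 360 in APOE3. The APOE2 libraries lay close together, and 4 of the 5 APOE3 libraries lay below all of them. Its log2 difference was 0.63 ± 0.17 (SE, limma adjusted p = 0.0696). The adjusted p ran from 0.0182 without APOE3 replicate 1 to 0.186 without APOE3 replicate 4, and DESeq2 gave 0.58 as the log2 difference with an adjusted p of 0.0372. Without APOE3 replicate 2 the limma fit gave 0.56 (adjusted p = 0.130). Cdc7, the kinase that fires origins, had 124 to 256 in APOE2 (median 171), and 82.2, 63.3, 90.5, 117 and 198 in APOE3. The first 4 of these lay below every APOE2 library, and the log2 difference was 0.83 ± 0.26 (SE, limma adjusted p = 0.140). Without APOE3 replicate 5, the highest, it was 1.07, with a limma adjusted p of 0.0466, and without APOE3 replicate 2, the lowest, it was 0.66, with 0.266. Pola2, a subunit of the polymerase that primes synthesis, had 0.66 ± 0.23 (SE, limma adjusted p = 0.183).

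In the other direction, Cdkn1a, which encodes the kinase inhibitor p21, had 1719 to 2845 normalised counts in APOE2 (median 2426), and 3488, 3478, 2256, 5469 and 2443 in APOE3. APOE3 replicates 1, 2 and 4 lay above every APOE2 library, and the other 2 lay within the APOE2 range. On the log2 scale it differed by −0.47 ± 0.16 (SE, limma adjusted p = 0.193), and −0.28 without APOE3 replicate 4. Cdk6, the second kinase of cyclin D, had −0.41 ± 0.15 (SE, limma adjusted p = 0.209), and Chaf1b, of the histone chaperone that follows the fork, −0.48 ± 0.18 (SE, limma adjusted p = 0.226). Orc3, a subunit of the origin recognition complex, was the 1 gene of that list whose groups did not overlap, beside 0.984% of all genes. Its values were 131 to 215.1 in APOE2 and 215.9 to 291 in APOE3, so the groups nearly touched. It was named after its values were seen, and its log2 difference of −0.39 had a limma adjusted p of 0.306. Myc, the growth regulator, had 34.3 to 79.8 in APOE2 and 94.8, 33.9, 109, 8.47 and 90.2 in APOE3, and the sign of its difference (0.29 ± 0.47, SE) was the opposite without APOE3 replicate 4, with the lung-epithelium covariate and in the edgeR and DESeq2 fits.

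Genes of the later cell cycle were counted alongside. Of 20 genes of G2 and mitosis, 1 passed limma's adjusted threshold, beside 0.790% of all genes. It was Nusap1, a spindle gene, with 479 to 1025 normalised counts in APOE2 (median 682), and 552, 429, 360, 300 and 176 in APOE3. Only APOE3 replicate 1 reached into the APOE2 range, and the log2 difference was 0.97 ± 0.21 (SE, limma adjusted p = 0.0301). Nusap1 did not pass with no filter (adjusted p = 0.105), without the limma trend (0.174), with the replicate block (0.0606), with replicates 1 to 5 alone (0.0764) or with the lung-epithelium covariate (0.579). It also did not pass in 7 of the 13 limma fits that leave 1 library out (APOE2 replicates 2, 3, 5 and 7 and APOE3 replicates 3, 4 and 5), with an adjusted p of up to 0.0825. For 16 of the 20 the difference was above 0, with a median of 0.14, beside 21 of 38 and 0.0085 for the G1/S and replication genes. Over all genes tested, 50.1% lay above 0. With the lung-epithelium covariate 8 of the 20 lay above 0 and the median was −0.077. Without adjustment, 4 of the 20 had a limma p-value under 0.05 (20%), all higher in APOE2. Of all genes, 14.2% had one in either direction and 7.51% had one with a higher value in APOE2. The 4 were Nusap1, Cdk1 (log2 difference 0.49), Kif20a (0.40) and Cenpf (0.32), the last 3 with limma adjusted p-values from 0.147 to 0.291. Mki67, a common marker of cycling cells, had −0.10 and Top2a 0.017. The summed share of these 20 genes was 2311 to 3450 CPM in APOE2 and 2309 to 3104 in APOE3. Whether the 2 lists differ from each other was not tested. Within the members, the 13 with an E2F match in the promoter window had a median difference of 0.042, with 10 above 0. The 17 matched members without one had −0.015, with 7 above 0. This split was not tested either.

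**Figure D4:**
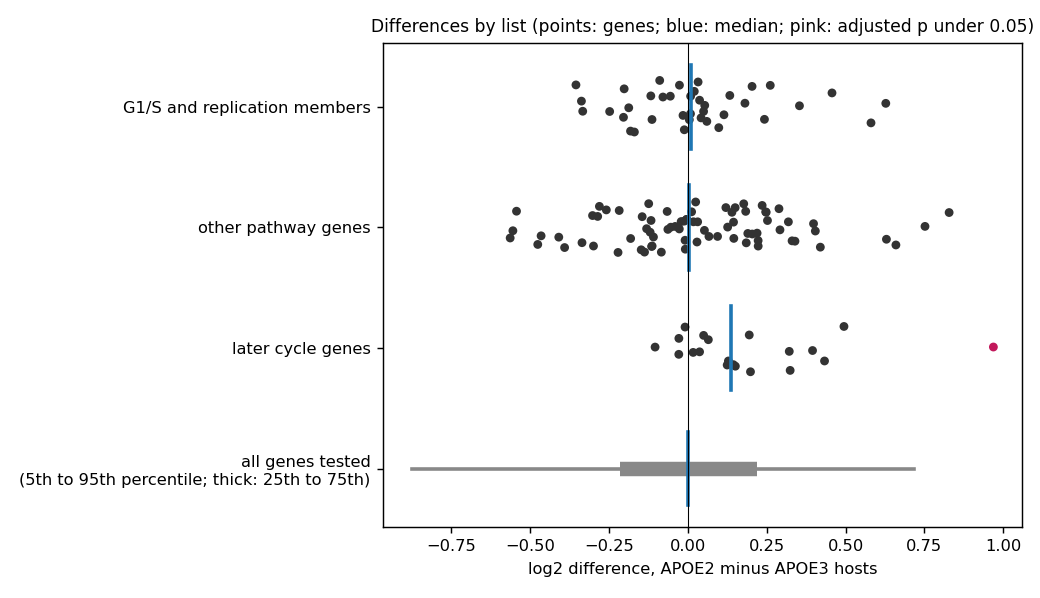
Log2 difference (APOE2 minus APOE3, horizontal axis) of each gene in 3 lists, with the median in blue, beside the 5th to 95th percentile range of all 12403 genes tested (−0.87 to 0.72). The members' median lies at 0.0085 and that of the later cycle genes at 0.14, and Nusap1 (pink) is the 1 gene that passed the adjusted threshold.

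Because lung-cell RNA differed between the groups, the fit was repeated with the mean of the lung-epithelium markers as a covariate. The median difference of the members was then −0.13, beside 0.015 for all genes, and 13 of 38 were above 0. No member passed in that limma fit either, and 4 of 38 had an unadjusted p-value under 0.05 (Cdk4, Lig1, Mcm3 and Rpa2, all below 0). Of all genes 7.89% had one in either direction, and 422 of 12403 genes had one with a difference below 0. The summed markers of the 2 groups overlapped only between 438 and 497 CPM, and 11 of the 12 tested markers were lower in APOE2. The covariate is a mean of log2 values, and its own overlap between the groups was not measured. Covariate and genotype were thus confounded, and the part of lung-cell RNA in the differences of single members was not tested.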

How the data were processed

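Total RNA of 13 sorted tumour samples was sequenced as QuantSeq libraries, per the labels' protocols. The deposited values, 1 table by the authors, are normalised counts (a signal with no negative values). The submitters' processing notes name STAR 2.6.0, featureCounts, DESeq2 1.28.1 and mm10. In every library 100% of nonzero values became whole reads when divided by 1 step (relative tolerance 1e-06), and median-of-ratios size factors recomputed from those reads equalled the deposited scaling. Count tests on these reads were alternatives only. edgeR called 138 genes and DESeq2 311.

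Identifiers were paired with symbols through GENCODE M21 (GRCm38), which held 22649 of 22656. Values were taken as log2(value + 1), so differences of low genes are understated. Genes averaging 10 or more normalised counts were tested for genotype with limma 3.58.1 in R 4.3.3 (intensity trend, two-sided, Benjamini-Hochberg over all 12403 genes, threshold 0.05), checked on simulated data. Alternatives covered pseudocounts, scaling, filters, each library left out, the replicate number as a block, limma's variance options, edgeR 4.0.16, DESeq2 1.42.0, a lung-epithelium covariate and replicates 1 to 5 alone. A fit without APOE2 replicate 3 and APOE3 replicate 2 was chosen after seeing the data. Values in every library are given for the 8 members with the smallest p-value and 6 fixed members (2 in both). From the wider list the 3 genes with the smallest p-value in each direction, Cdkn1a and Myc are named. Lig1, Orc3, Nusap1, Cdk1, Kif20a, Cenpf, Mki67 and Top2a were singled out after their values were seen. Roles, members and lists were chosen with earlier results of these data known. No pair of libraries held identical values, and the labels give no batch or date. Without molecular identifiers, reads can be copies of 1 molecule, so depth bounds the counting error only. Protein sequences were not used here.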

Additional observations from a re-analysis of the deposited data

Results flagged for a closer look

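Dixon's criterion, which compares the gap between the most extreme library and the next with the whole range, was applied to each group for the 38 members and 7 named genes of the wider list. In 90 screens 4 values stood apart, where chance gives about 4.5 (1 in 20). In APOE2, Pole had 46.5 normalised counts in replicate 5, with the next value at 97.2. In APOE2 replicate 3, E2f1 had 849, with the next value at 675, and Mcm5 had 2031, with the next at 1697. In APOE3, Lig1 had 3321 in replicate 2, with the next value at 1925.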

How the results depend on the processing

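In each of the 28 alternative fits 0 of the 38 members passed the adjusted threshold; the smallest adjusted p-values were 0.0839 (Fen1, limma without APOE3 replicate 1) and 0.0868 (Rrm2, limma without APOE2 replicate 3 and APOE3 replicate 2). The count of members at an unadjusted p-value under 0.05 was 6. It was 3 without the limma trend, in edgeR, in DESeq2 and with replicates 1 to 5 alone (12.9%, 13.2%, 14.5% and 11.8% of all genes). It was 2 without APOE2 replicate 3 and APOE3 replicate 2 (12.7% of all genes), and 2 to 6 with 1 library left out (2 without APOE3 replicate 4, and 3 without APOE2 replicate 2 or 7 or APOE3 replicate 2, with 12.1% to 13.2% of all genes). The members' median difference ran from −0.047 to 0.069 with 1 library left out and was −0.13 with the lung-epithelium covariate. In the wider list 0 to 1 genes passed with 1 library left out (Gmnn without APOE3 replicate 1, log2 difference 0.77; Cdc7 without APOE3 replicate 5), and 1, Gmnn, with DESeq2. Over all genes tested, 98 passed. The count was 9 with no filter, 0 without the limma trend (1599 at an unadjusted p-value under 0.05), 311 with DESeq2, 2 with the lung-epithelium covariate and 40 with replicates 1 to 5 alone. With 1 library left out it was 9 (without APOE3 replicate 3) to 228 (without APOE3 replicate 1), and it was 28, 30, 43, 49, 50 and 57 without APOE2 replicate 2, APOE3 replicate 4 and APOE2 replicates 5, 1, 7 and 8. With equal library totals the split of calls was 38 higher and 54 lower, beside 51 and 47.

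Over the 28 alternatives 19 of the 38 members took both signs, 9 lay above 0 in all and 10 below. Fits that change only the filter or limma's variance options leave the members' differences as they were. The replicate block gave the same differences as replicates 1 to 5 alone, so the 28 are not separate checks of a sign. Among the members with values by library and the wider-list genes named by the rule, the sign changed for E2f1, Mcm2 and Myc. E2f1 was 0.0089 with TMM scaling, 0.053 with the replicate block and with replicates 1 to 5 alone, and −0.085 to 0.078 with 1 library left out. Mcm2 was −0.25 with the covariate, −0.032 without APOE2 replicate 3 and APOE3 replicate 2, and −0.016 to 0.11 with 1 library left out. Myc was −0.079 in edgeR, −0.086 in DESeq2, −0.15 with the covariate and −0.31 to 0.58 with 1 library left out. The cause of these shifts was not tested. Same-numbered libraries did not deviate together (correlations of −0.063 to 0.014), and 0 of the 5 APOE3 libraries correlated best with their own number. No pairing by number was seen, but with so few libraries a weak one could be missed. With the replicate block 43 genes passed over the whole table, 0 members and 5 members at an unadjusted p-value under 0.05 (10.9% of all genes).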
